A study of Mus musculus with 8 samples.

Results

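Embryonic germ cell (EGC) lines 4 and 7 were compared with libraries 1 and 2 of the primordial germ cells (PGCs) of the E9.5 mouse embryo, the cell population from which such lines were made. These are 4 of the 8 RNA-seq libraries of the series, picked by their column names. The comparison covered 11083 of the 20153 genes in the table, those that reached 1 FPKM in 2 or more of the 8 libraries. Both EGC lines were of the Oct4gfpXCD1 strain, had been derived from sorted E9.5 PGCs, and were at passage 6 in serum with LIF on mouse embryo fibroblast feeders. About 500 cells went into each EGC library. The PGCs were of the same Oct4gfpXCD1 strain, which carries a green fluorescent reporter of Oct4, and were sorted from E9.5 embryos at passage 0, with about 250 cells a library. The other groups, iPGCs made in hanging drops (1500 cells) and PGC-like cells (PGCLCs) made in aggregates (300 to 500 cells), were made from embryonic stem cells of the BVSC line at passage 21 and entered the estimate of the spread. Each EGC library is 1 line, and derivation, medium, feeders and passage all differ from the PGCs at once, so their parts in a difference cannot be told apart. The labels call the samples of a group biological replicates without saying which cultures or embryos they came from, so p-values measure the spread between these samples.

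PGCs are the embryonic founders of eggs and sperm, and at this stage they migrate toward the future gonads. Their fate is set by the transcription factors Prdm1, Prdm14 and Tfap2c, they keep transcription factors of pluripotency such as Oct4 without behaving as pluripotent cells in the embryo, and they lose most of their DNA methylation. Given LIF, KIT ligand and FGF in culture, PGCs can turn into EGCs, which divide without limit and can form every tissue, much as embryonic stem cells do.

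Fewer genes were detected in the PGC libraries, and these differed more from each other than the EGC lines did. Genes at 1 FPKM or more numbered 8677 in EGC line 4 and 9280 in line 7, against 8259 and 7991 in PGC libraries 1 and 2. Of the tested genes, 7.84% and 3.38% were listed at 0 in the EGC lines, against 10.9% and 12.7% in the PGC libraries. The EGC lines lay 2 or more log2 units apart at 8.26% of tested genes, and the PGC libraries at 17.1%. Read totals are not stated, so the depth behind each value is unknown. In bulk samples, fewer cells of a type and less RNA per cell cannot be told apart. Values below are given for EGC line 4 and then line 7, and for PGC library 1 and then library 2, in FPKM, which is scaled to transcript length. Log2 differences are EGC minus PGC on the log2(FPKM + 1) scale, with the standard error of the fit after ±.

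Of the 11083 genes, 82 changed between EGCs and PGCs by limma with Benjamini-Hochberg adjustment below 0.05, which is 0.740%. In EGCs 58 genes (0.523%) rose and 24 (0.217%) fell, shares to be read beside the counts of calls on gene lists below. With quantile normalization the split was 57 and 37. Over all tested genes, the log2 difference had a median of 0.07 and its size a median of 0.73. Called rises began at 2.44 and called falls at 2.45. This is no fixed limit of detection, since the standard error varied by gene and some larger differences did not pass. The groups did not overlap at far more genes than were called, with EGCs above PGCs at 2672 genes (24.1%) and below at 2219 (20%). In the same fit 1906 genes (17.2%) had an unadjusted p below 0.05. Among the genes that rose, 13 were listed at 0 in both PGC libraries and 36 were below 1 FPKM in both. Among those that fell, 9 were below 1 FPKM in both EGC lines. Many of the 82 calls were lost without either EGC line or either PGC library, fits that leave 1 library in a group. Leaving out a PGC library also added calls that were not among the 82. Leaving out an iPGC library gave 15 calls either way, and leaving out a PGCLC library gave 21 or 20. The few calls that held with each of the 8 libraries left out were all entries under 200 bases. Apart from Mir3063 these entries were at 0 in every library outside EGCs, so that outcome was close to fixed in advance. None of the 50 longer genes chosen by size of change for naming kept its call without EGC line 4, or without line 7. In a limma fit of the 4 EGC and PGC libraries alone, 1319 genes had an unadjusted p below 0.05. None passed the adjusted threshold, so the calls rest on the spread shared with iPGCs and PGCLCs. The iPGC libraries lay 2 or more log2 units apart at 2.31% of tested genes and the PGCLC libraries at 8.97%. Both shares are below the 17.1% of the PGC libraries. The shared spread can therefore understate that of PGCs and make the adjusted p too small.

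**Figure D1:**
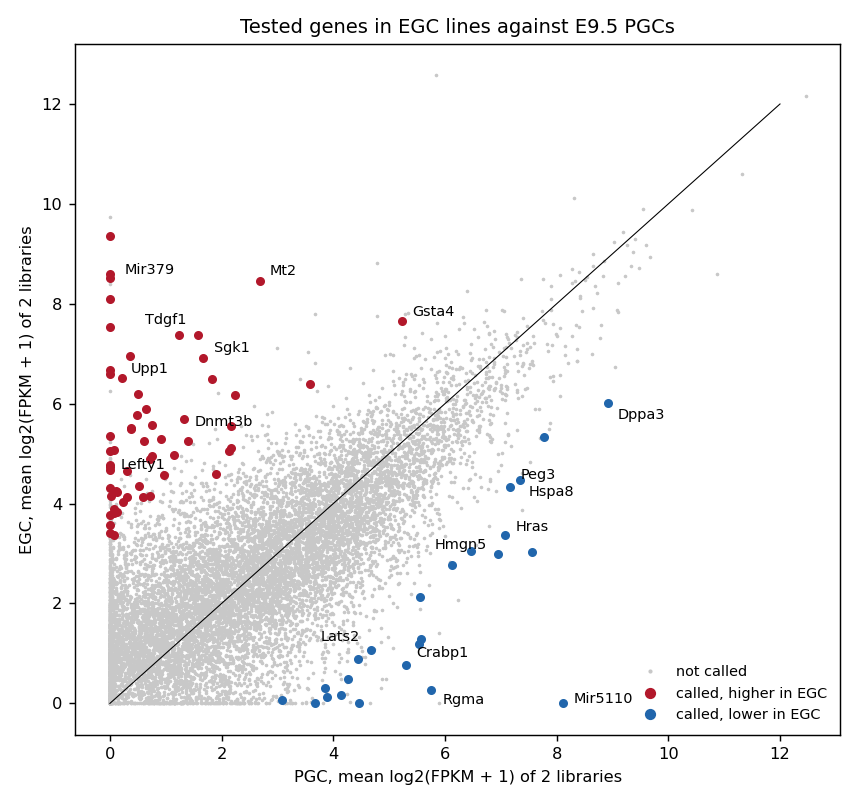
Mean log2(FPKM + 1) of the 2 EGC lines (vertical axis) against that of the 2 PGC libraries (horizontal axis), 1 point per tested gene, with equality as a line. The 58 higher genes (red) and 24 lower genes (blue) lie at least 2.44 from the line, and many higher genes lie at or near 0 in PGCs.

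Cripto and DNA methyltransferase genes rose in EGCs and a PGC gene fell among the 4 markers taken for this comparison. Tdgf1 (chromosome 9, 110939603 to 110946158, GRCm38), which encodes the Nodal co-receptor Cripto, stood at 189 and 145 FPKM in EGCs, against 0.534 and 4.78 FPKM in PGCs. The groups were far apart, and the log2 difference was 5.80 ± 0.69 (limma adjusted p = 0.0181). Tdgf1 stayed past the threshold without either PGC library (adjusted p 0.0265 and 0.0128) but not without EGC line 4 (0.206), line 7 (0.0957) or either PGCLC library (0.0652). Dnmt3b (chromosome 2, 153649450 to 153687730), a de novo DNA methyltransferase, stood at 66.1 and 38.8 FPKM in EGCs, against 4.52 and 0.141 FPKM in PGCs, a rise of 4.36 ± 0.76 (limma adjusted p = 0.0488). Dppa3 (chromosome 6, 122626410 to 122630272), also called Stella, a protein that shields DNA methylation in the zygote and a classic marker of PGCs, fell to 40.3 and 101 FPKM in EGCs, against 409 and 574 FPKM in PGCs. Its log2 difference was -2.91 ± 0.51 (limma adjusted p = 0.0488). Both lines lay below both PGC libraries. Dppa3 missed the limma threshold with any 1 of the 8 libraries left out (adjusted p 0.073 to 0.237), and Dnmt3b with any but PGC library 1 (0.0545 to 0.255, against 0.0173 without that library). Prdm1 (chromosome 10, 44437177 to 44528501), the repressor that starts the germ cell program, was at 2.34 and 2.2 FPKM in EGCs and at 14.9 and 42.5 FPKM in PGCs. Its groups did not overlap, but the log2 difference of -3.01 did not pass the test.

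The other early PGC genes lay mostly on the PGC side. Of 18 tested genes on a list of PGC specification and early germ cell genes, 2 fell, Dppa3 and Itgb3, and none rose. Over all tested genes 0.217% fell and 0.523% rose. The list median was -1.78 beside 0.07 over all genes. In 10 of the 18 both EGC lines were below both PGC libraries, and in 3 above, beside 20% below and 24.1% above over all tested genes. The list median stayed between -2.42 and -1.39 under all 18 alternatives. Itgb3, the beta3 integrin used as a surface marker of PGCs, fell to 0.0119 and 0.25 FPKM in EGCs, against 19 and 14 FPKM in PGCs (-3.96 ± 0.60, limma adjusted p = 0.0347). Members that did not pass the test also kept the groups apart. Nanos3, an RNA-binding protein needed for PGC survival, was at 0 and 0.906 FPKM in EGCs and at 7.37 and 22.3 FPKM in PGCs. Kit, the receptor for the survival factor of migrating PGCs, was at 9.59 and 11.3 FPKM in EGCs and at 35 and 96.5 FPKM in PGCs. Tfap2c was at 5.77 and 5.99 FPKM in EGCs and at 23.1 and 30.2 FPKM in PGCs. Prdm14 and Sall4 had the same order, at 0.949 and 1.38 FPKM and at 56.7 and 60.3 FPKM in EGCs, against 6.17 and 7.39 FPKM and 193 and 194 FPKM in PGCs. Fut9, the enzyme that makes the SSEA1 sugar antigen, ran the other way without passing the test, at 7.98 and 6.03 FPKM in EGCs and 0.0195 and 0.0413 FPKM in PGCs. Later germ cell genes had no limma call among 24 tested, 7 at an unadjusted p below 0.05 (17.2% over all genes), and a median of -0.07.

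**Figure D2:**
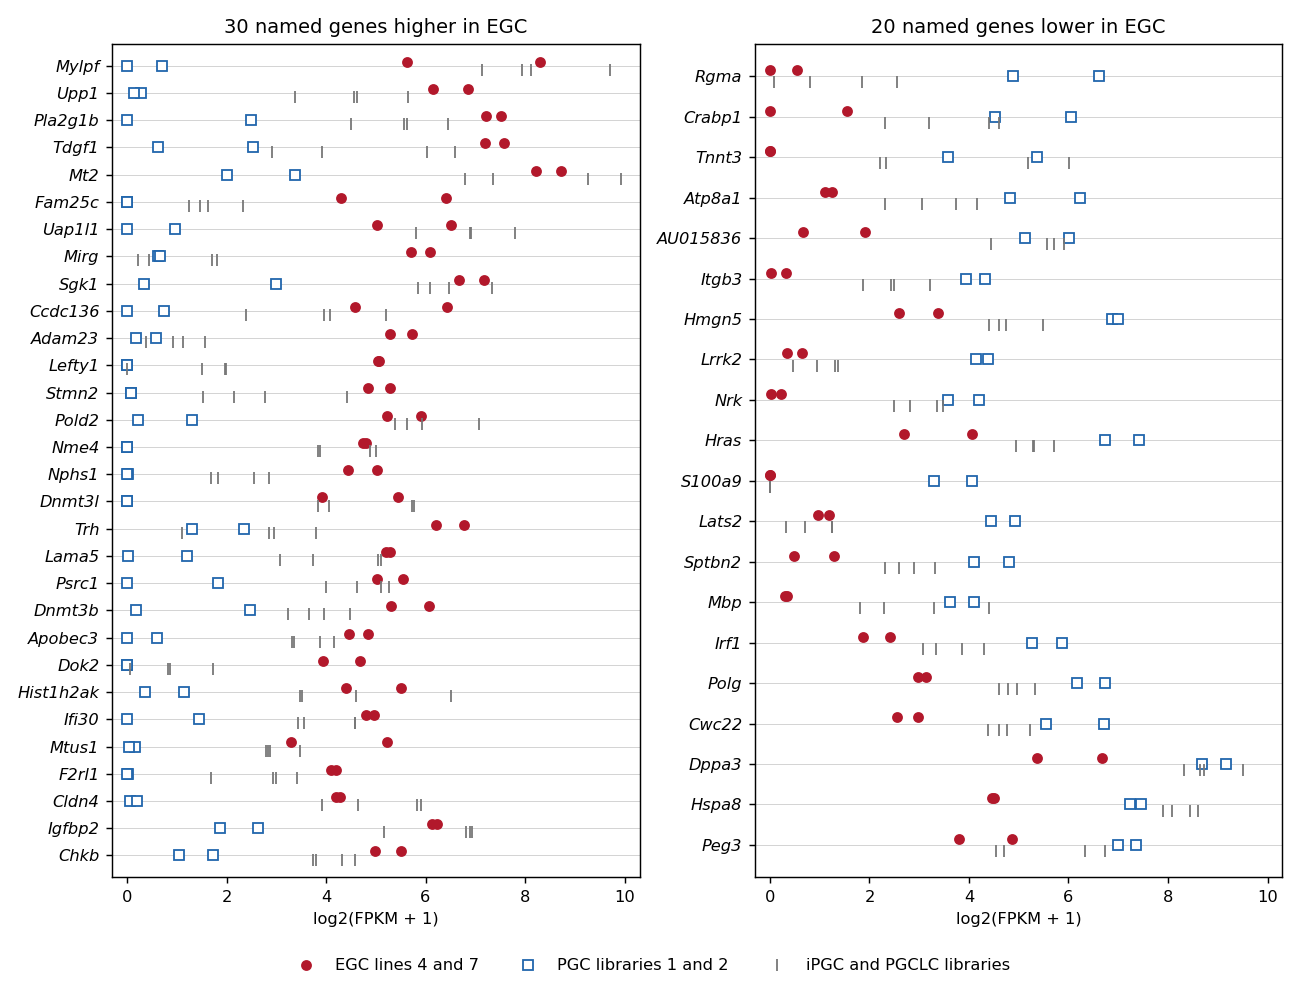
Log2(FPKM + 1) of the 30 named genes higher in EGCs (left) and the 20 lower (right), 1 row per gene and 1 mark per library: EGC lines as filled circles, PGC libraries as open squares, iPGC and PGCLC libraries as ticks. EGC and PGC marks do not overlap in any row, as the choice of genes required, and many PGC marks of the left panel lie near 0.

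Pluripotency genes did not move as 1 block. Of 15 tested core pluripotency genes only Tdgf1 rose, none fell, and the list median was 0.61, which came to 0.04 without PGC library 1 and 1.27 without PGC library 2. Pou5f1, which encodes Oct4, was at 83.5 and 65.8 FPKM in EGCs and at 24.7 and 72.1 FPKM in PGCs, so the groups overlapped. Nanog was at 46.9 and 45.3 FPKM in EGCs, against 6.69 and 16.1 FPKM in PGCs, without overlap. Sox2 had the opposite order, with 10.8 and 17.7 FPKM in EGCs and 30.5 and 31.8 FPKM in PGCs. Neither Nanog nor Sox2 passed the test. Of 20 naive pluripotency genes none passed the limma threshold and 8 had an unadjusted p below 0.05, the median was 1.13, and 11 had both EGC lines above both PGC libraries, beside 17.2% of all tested genes at such a p and 24.1% with EGCs above. Among them Dppa5a was at 73.4 and 169 FPKM in EGCs and at 6.78 and 20.1 FPKM in PGCs, and Klf4 at 3.25 and 6.93 FPKM in EGCs and 0.349 and 0 FPKM in PGCs. Esrrb lay on the PGC side, at 22.9 and 20.6 FPKM in EGCs and 26.6 and 34.3 FPKM in PGCs, and Klf2 overlapped, at 5.14 and 9.13 FPKM in EGCs and 7.39 and 22 FPKM in PGCs. Primed epiblast genes, those of the later, implantation-stage form of pluripotency, had 15 tested members with a median of 1.16. Of these Dnmt3b and Lefty1 rose and none fell, beside 0.523% and 0.217% over all tested genes. In 9 of the 15 both EGC lines were above both PGC libraries, beside 24.1% of all genes. Otx2, a transcription factor of the primed epiblast, was at 12.6 and 5.95 FPKM in EGCs and listed at 0 in both PGC libraries, without passing the test.

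Nodal signalling was represented among the rises by its co-receptor and its inhibitor. Lefty1 (chromosome 1, 180935022 to 180938400), a secreted Nodal antagonist that is itself a target of the pathway, was at 32.6 and 31.8 FPKM in EGCs and listed at 0 in both PGC libraries, with a log2 difference of 5.05 ± 0.74 (limma adjusted p = 0.0323). Without either EGC line it no longer passed (adjusted p 0.211 without line 4 and 0.124 without line 7), nor without either PGC library (0.0599 and 0.0533) or either iPGC library (0.0982 and 0.0983). The ligand Nodal was at 27.5 and 8.47 FPKM in EGCs and at 0.28 and 1.84 FPKM in PGCs, and the other antagonist Lefty2 at 7 and 13.2 FPKM in EGCs and 0 and 0.272 FPKM in PGCs. Neither passed the test, though both kept the groups apart. The receptors Acvr1b and Acvr2b and the signal carriers Smad2, Smad3 and Smad4 had differences between -0.58 and 0.15. Of the 23 tested genes of the pathway, 2 rose (Tdgf1 and Lefty1) and none fell, beside 0.523% and 0.217% over all tested genes. The list median was 0.22.

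BMP, WNT and retinoic acid genes had few calls, and those were falls. Rgma, a membrane-anchored BMP co-receptor, fell to 0 and 0.463 FPKM in EGCs, against 28.7 and 97.5 FPKM in PGCs (-5.48 ± 0.96, limma adjusted p = 0.0488), the largest named fall. It was the only call among 17 tested BMP pathway genes, whose median was -0.82. The BMP targets Id1 and Msx2 did not pass, with Id1 at 0 in both EGC lines and at 1.43 and 4.28 FPKM in PGCs, and Msx2 at 0 and 0.378 FPKM in EGCs and 7.87 and 8.23 FPKM in PGCs. Crabp1, which carries retinoic acid inside cells, fell to 0 and 1.93 FPKM in EGCs, against 65.6 and 22.1 FPKM in PGCs (-4.52 ± 0.75, limma adjusted p = 0.0454). It was the only call among 11 retinoic acid genes, which had a median of -0.91 (-0.49 without PGC library 1 and -0.58 without EGC line 7). Stra8, a retinoic acid target that starts meiosis, was at 7.13 and 2 FPKM in EGCs and listed at 0 in both PGC libraries. None of 28 tested WNT genes passed the limma threshold, with 7 at an unadjusted p below 0.05 (17.2% over all genes) and a median of 0.12. The ligand Wnt5a was listed at 0 in both EGC lines and was at 5.79 and 6.09 FPKM in PGCs, and its receptor Ror2 was at 3.98 and 3.91 FPKM in EGCs and 16.3 and 7.5 FPKM in PGCs. Mesoderm, limb and Hox genes had no limma call among 17, and 4 were at an unadjusted p below 0.05 (17.2% over all genes). Their median was -0.86, which came to -0.03 without PGC library 1.

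In the FGF and MAPK pathway the only call among 34 tested genes was the small GTPase Hras, and the median was 0.01. Hras fell to 5.5 and 15.6 FPKM in EGCs, against 170 and 105 FPKM in PGCs (-3.70 ± 0.56, limma adjusted p = 0.0354). Nras, a related GTPase, differed by -0.34 and did not pass. Receptors and ligands had different orders. Fgfr2 was at 0.358 and 4.94 FPKM in EGCs and at 24.4 and 31.9 FPKM in PGCs, and Fgfr1 at 11.3 and 9.71 FPKM in EGCs and 38.9 and 26 FPKM in PGCs. The ligand Fgf4, which embryonic stem cells secrete, was at 9.44 and 8.76 FPKM in EGCs and 1.27 and 0.044 FPKM in PGCs. Etv5, an FGF target, was at 26.5 and 25.8 FPKM in EGCs and at 77.4 and 207 FPKM in PGCs. None of these 4 passed the test.

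LIF and PI3K pathway genes had 1 shared call, the kinase Sgk1. It rose to 101 and 143 FPKM in EGCs, against 7.01 and 0.26 FPKM in PGCs (5.26 ± 0.84, limma adjusted p = 0.0421). The LIF and STAT3 list had 17 tested genes and a median of 1.06, which turned to -0.24 without PGC library 2. Ccnd1 and Bcl3 lay high in EGCs without passing the test. Ccnd1, the G1 cyclin, was at 89.3 and 59.6 FPKM in EGCs and 12.4 and 0.0858 FPKM in PGCs, and Bcl3, an NF-kappaB cofactor induced by LIF, at 29 and 11.7 FPKM in EGCs and 0.162 and 0 FPKM in PGCs. Pim2, a survival kinase of the same family as the LIF targets Pim1 and Pim3, rose to 21 and 8.12 FPKM in EGCs, against 0.14 and 0.0378 FPKM in PGCs. The KIT and PI3K list had 27 tested genes and a median of -0.07, and its members Akt1 (1.36 and 4.28 FPKM in EGCs, 21.5 and 18.2 FPKM in PGCs) and Pik3r3 (0.489 and 0.373 FPKM in EGCs, 7.72 and 3.41 FPKM in PGCs) lay on the PGC side without passing. In the Hippo pathway, the kinase Lats2 fell to 0.956 and 1.27 FPKM in EGCs, against 29.2 and 20.8 FPKM in PGCs (-3.61 ± 0.62, limma adjusted p = 0.0488), the only call among 24. Its paralog Lats1 was at 2.46 and 2.53 FPKM in EGCs and at 3.28 and 2.08 FPKM in PGCs.

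**Figure D3:**
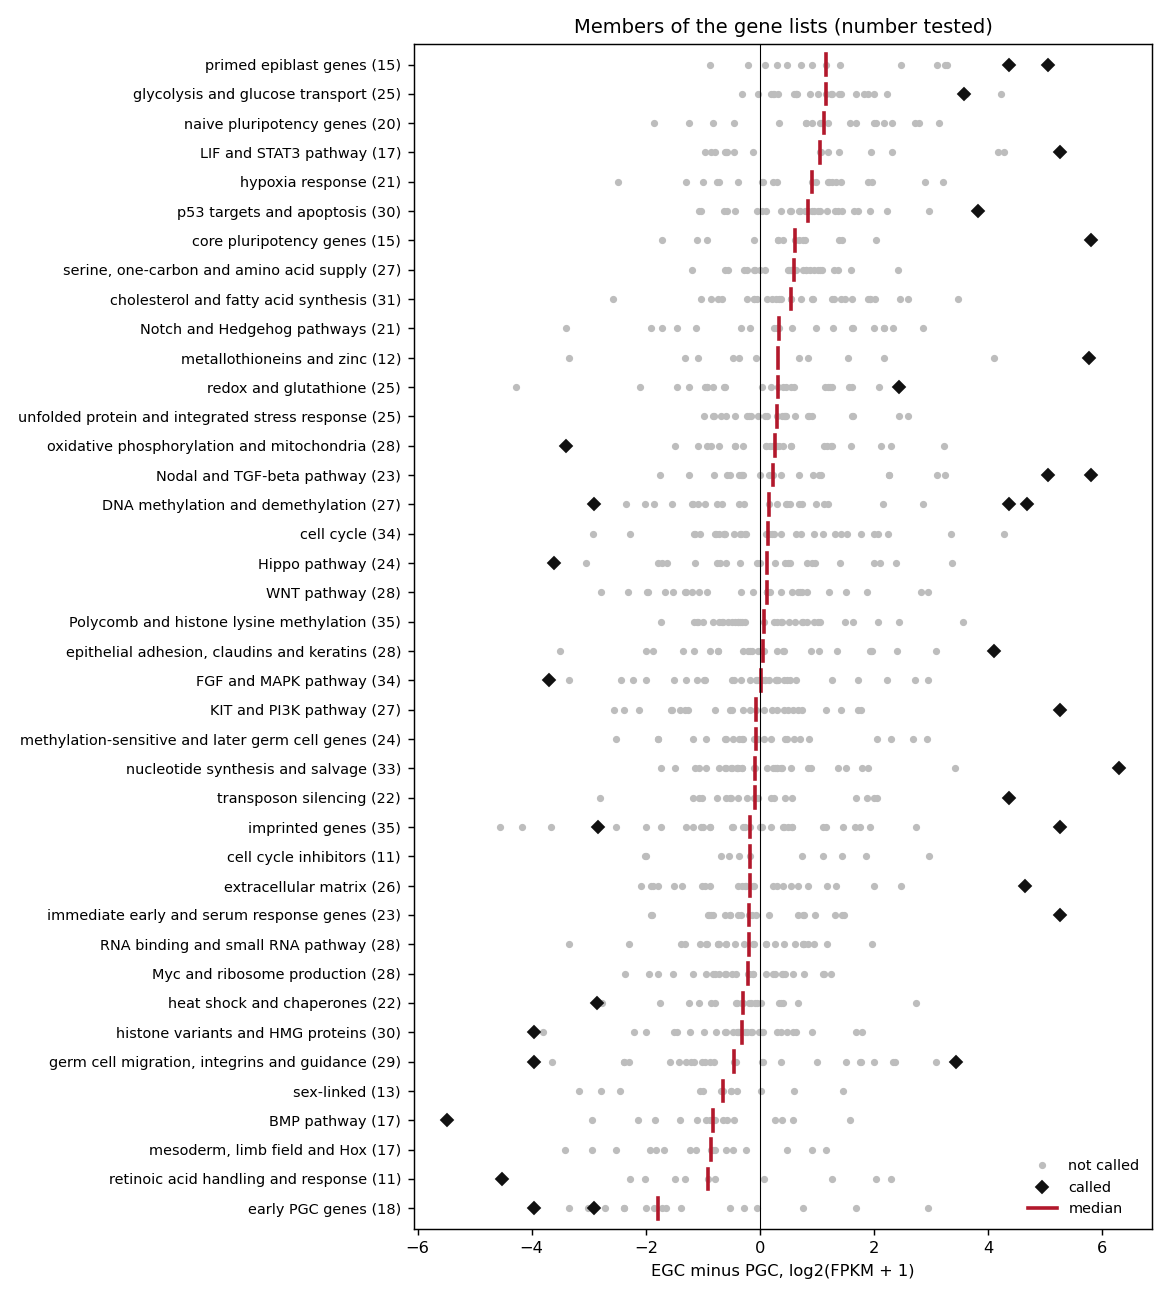
Log2 differences (EGC minus PGC, log2(FPKM + 1) scale) of the tested members of the gene lists, 1 row per list, with members not called as grey circles, called members as black diamonds and the list median as a red bar. Lists with under 10 tested genes and the markers of other cell types are not drawn, and among the lists drawn early PGC genes have the lowest median at -1.78, and primed epiblast and glycolysis genes the highest at 1.16 and 1.15.

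Of the genes of DNA methylation, Dnmt3b and its partner gene Dnmt3l rose. Dnmt3l, the catalytically inactive partner of the de novo methyltransferases, was at 14.1 and 42.5 FPKM in EGCs and listed at 0 in both PGC libraries (4.68 ± 0.60, limma adjusted p = 0.0239). The iPGCs had 51.8 and 53.4 FPKM and the PGCLCs 13.4 and 15.6 FPKM, so only the PGCs were low. Dnmt3l overlaps Aire on the opposite strand, and since use of strand is not stated the reads of the pair cannot be told apart. Dnmt3b and Dnmt3l made 2 rises among 27 tested methylation and demethylation genes, beside 1 fall, Dppa3. Over all tested genes 0.523% rose and 0.217% fell. The list median was 0.15, which came to 0.63 without PGC library 1 and -0.53 without PGC library 2. Dnmt3a, the other de novo enzyme, was at 59.5 and 57.8 FPKM in EGCs and 60.4 and 37.5 FPKM in PGCs. Maintenance methyltransferase Dnmt1 was at 25.3 and 24 FPKM in EGCs and 49.5 and 66.7 FPKM in PGCs, whereas its partner Uhrf1 was at 26.8 and 31.3 FPKM in EGCs and 13.5 and 2.08 FPKM in PGCs. Tet1, which oxidises methylcytosine, was at 181 and 180 FPKM in EGCs and 114 and 72.1 FPKM in PGCs. None of these 4 passed the test. Apobec3, a cytidine deaminase that restricts retroviruses and transposons, rose to 21.1 and 27.9 FPKM in EGCs, against 0.52 FPKM and below 0.001 FPKM in PGCs (4.36 ± 0.59, limma adjusted p = 0.0272). Cbx7, which overlaps Apobec3 on the opposite strand, was at 139 and 186 FPKM in EGCs and at 95 and 14.8 FPKM in PGCs. The reads of this pair cannot be told apart either. Among 22 transposon silencing genes Apobec3 was the only call.

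Imprinted genes, which are expressed from 1 parental copy and whose marks PGCs erase, had 2 calls among 35 tested, 1 in each direction. Over all tested genes 0.740% were called. The list median was -0.17, which came to 0.16 without PGC library 1. Peg3, a paternally expressed zinc finger gene, fell to 28.3 and 13 FPKM in EGCs, against 162 and 126 FPKM in PGCs (-2.83 ± 0.47, limma adjusted p = 0.0454). The growth genes Igf2 and H19, neighbours on chromosome 7, did not pass. Igf2 was at 0.0907 and 0.396 FPKM in EGCs and at 81 and 9.13 FPKM in PGCs, and H19 at 0.615 and 9.82 FPKM in EGCs and 111 and 49.4 FPKM in PGCs. Grb10, an adaptor that limits growth, was at 2.5 and 2.91 FPKM in EGCs and 61 and 34.4 FPKM in PGCs, also short of the threshold. In each of these 3 genes both EGC lines lay below both PGC libraries, and the PGC libraries lay furthest from each other at Igf2.

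The rise among imprinted genes was Mirg, a noncoding RNA that hosts microRNAs at the distal end of the Dlk1-Dio3 region (chromosome 12, 109729764 to 109749460). It rose to 66.8 and 51.4 FPKM in EGCs, against 0.534 and 0.587 FPKM in PGCs (5.26 ± 0.56, limma adjusted p = 0.00861). It held without either PGC library and lost the threshold without EGC line 4 (0.102) or line 7 (0.0594). The iPGCs had 2.27 and 2.52 FPKM and the PGCLCs 0.35 and 0.164 FPKM, so the EGC lines were above all 6 other libraries. The paternally expressed Dlk1 and the maternally expressed Rian were listed at 0 in all 4 EGC and PGC libraries, and the noncoding RNA Meg3 was at 0 and 0.00378 FPKM in EGCs and at 0 in both PGC libraries.

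The called genes of the region besides Mirg were 3 microRNA entries. Their mature sequences, from RefSeq on GRCm38.p6, are shown with the seed (bases 2 to 8) in capitals, since the seed is what pairs with target messages. An arm each of miR-1193 and miR-411, which were not tested and were above 0.001 FPKM in 1 EGC line only, is added for its shared seed.
miR-379-5p: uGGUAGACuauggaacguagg
miR-1193-5p: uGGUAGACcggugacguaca
miR-379-3p: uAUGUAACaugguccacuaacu
miR-411-3p: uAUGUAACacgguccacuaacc
miR-758-5p: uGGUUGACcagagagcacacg
miR-758-3p: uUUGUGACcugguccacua
miR-453: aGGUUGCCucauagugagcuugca
The 5p arms of miR-379 and miR-1193 share 1 seed, and the 3p arms of miR-379 and miR-411 share another. Mir379 (chromosome 12, 109709060 to 109709125) was at 222 and 677 FPKM in EGCs and listed at 0 in both PGC libraries (a log2 difference of 8.60 ± 0.67, limma adjusted p = 0.00236). Mir758 (109712810 to 109712890) was at 107 and 94.5 FPKM in EGCs and listed at 0 in both PGC libraries (6.67 ± 0.54, limma adjusted p = 0.00236). Mir453 (109735619 to 109735700), which lies inside Mirg on the same strand, was at 1632 and 80.1 FPKM in EGCs and listed at 0 in both PGC libraries (8.51 ± 1.18, limma adjusted p = 0.0299). All 3 were also listed at 0 in the 4 iPGC and PGCLC libraries. FPKM of entries under 200 bases is uncertain, since a few reads on so short an entry give a high value, and libraries of amplified total RNA do not measure mature microRNA. All 3 therefore passed the filter only through the EGC lines, and the other groups had no spread. Mir379 and Mir758 held their calls with each library left out, which was close to fixed in advance and is no support. Mir453 did not hold.

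Of the 48 microRNA entries of the region, 7 were above 0.001 FPKM in EGC line 4 and 9 in line 7, against 1 and 0 in the PGC libraries. The 4 shared by both lines were Mir379, Mir758, Mir453 and Mir544. Mir544 was at 945 and 213 FPKM in EGCs, against 761 and 0 FPKM in PGCs, so the groups overlapped. The entries found only in line 4 were Mir411 (342 FPKM), Mir329 (46.7 FPKM) and Mir3072 (443 FPKM). Those found only in line 7 were Mir1193 (29.9 FPKM), Mir666 (80 FPKM), Mir667 (107 FPKM), Mir654 (144 FPKM) and Mir382 (101 FPKM). The remaining 36 entries were below 0.001 FPKM in all 8 libraries. Of the 12 entries above 0.001 FPKM in either line, 4 were so in both.

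**Figure D4:**
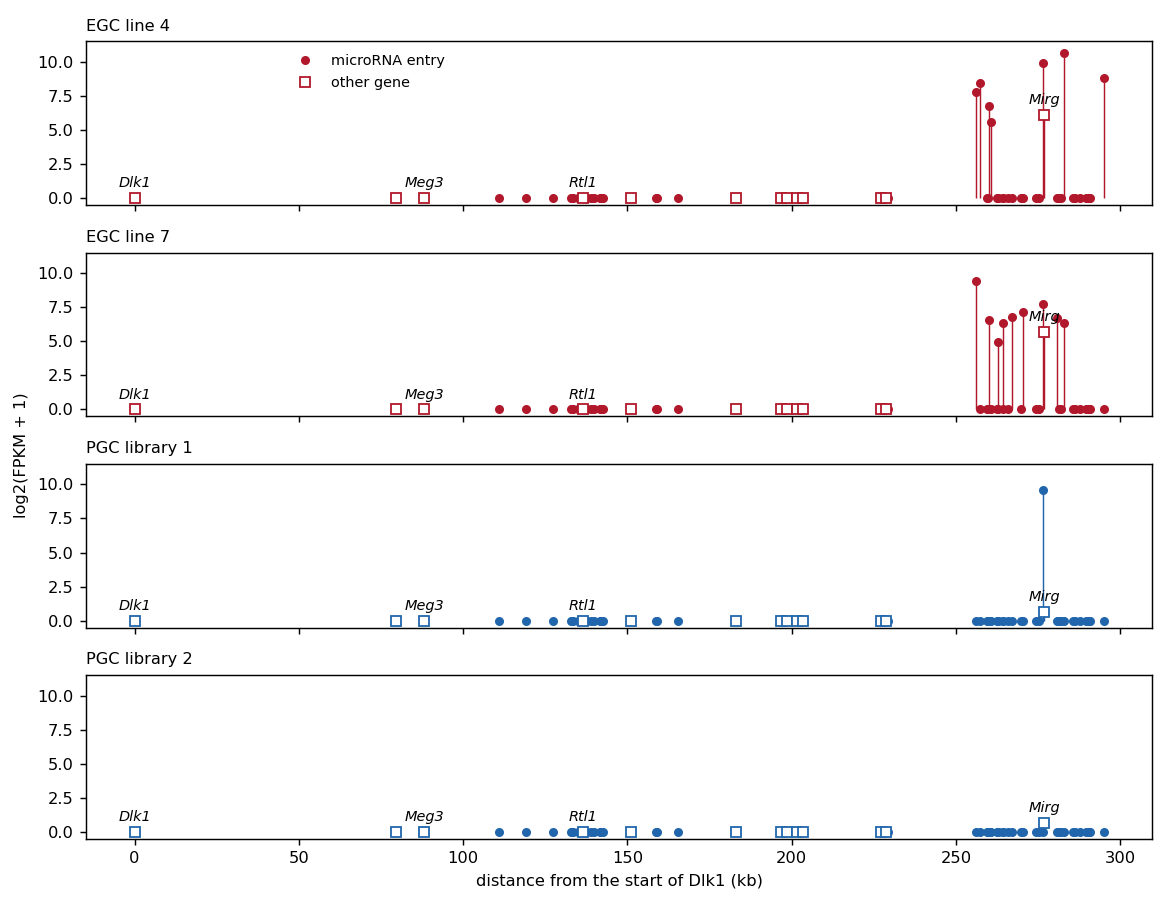
Log2(FPKM + 1) of the entries of the Dlk1-Dio3 region against distance from the start of Dlk1 (kb), in a panel each for EGC lines 4 and 7 and PGC libraries 1 and 2, with microRNA entries as circles and other genes as squares. MicroRNA entries above 0.001 FPKM lie around Mirg, 7 in line 4 and 9 in line 7, against 1 in PGC library 1 and 0 in PGC library 2.

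Other short entries were among the most extreme values. Mature sequences of the microRNAs among them are given with the seed in capitals. Mir3063 had the largest called rise, Mir1951 another of the called rises, and Mir5110 the largest called fall.
miR-3063-5p: uGGAGAUCagguuugcacacu
miR-3063-3p: uGAGGAAUccugaucucucgcc
miR-1951: gUAGUGGAgacugguguggcua
miR-5110: gGAGGAGGuagagggugguggaauu
Mir3063 (chromosome 11, 95963292 to 95963383), which lies inside Igf2bp1 on the same strand, was at 1120 and 384 FPKM in EGCs and below 0.001 FPKM in both PGC libraries, the largest called log2 difference at 9.36 ± 0.58 (limma adjusted p = 0.00122). Igf2bp1, an RNA-binding protein of growing embryonic cells, was itself at 43.4 and 72.9 FPKM in EGCs and 19.9 and 53.4 FPKM in PGCs and did not pass. Mir1951 was at 122 and 277 FPKM in EGCs and listed at 0 in both PGC libraries. The PRINS entry, an 89-base noncoding locus inside Etl4, was at 258 and 288 FPKM in EGCs and at 0 in both PGC libraries. Scarna8, a small RNA that guides modification of spliceosomal RNA, was at 154 and 58.6 FPKM in EGCs and at 0 in both PGC libraries. Mir5110 (chromosome 11, 85760616 to 85760702), which overlaps Bcas3 on the opposite strand, ran the other way, at 0 in both EGC lines and at 62.9 and 1197 FPKM in PGCs (-8.11 ± 1.16, limma adjusted p = 0.0309). The lowest PGC value was far below the highest, and the call was lost in 9 of the 18 alternatives.

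Mt2 was the only call among 12 metallothionein and zinc genes, beside 0.740% called over all tested genes. The list median was 0.31, between -0.22 and 0.48 over the alternatives. EGCs were above at 3 and below at 3, near the 24.1% and 20% of all tested genes. Mt2 (chromosome 8, 94172664 to 94173568), a cysteine-rich protein that binds zinc and copper, rose to 296 and 420 FPKM in EGCs, against 9.45 and 3.01 FPKM in PGCs (5.77 ± 0.53, limma adjusted p = 0.00501). It held without either PGC library and lost the threshold without EGC line 4 (0.0675) or line 7 (0.0594). Its neighbour Mt1 was at 96.5 and 194 FPKM in EGCs, against 38 and 0.632 FPKM in PGCs, a difference of 4.11 that did not pass. Both iPGC libraries (614 and 973 FPKM) and both PGCLC libraries (162 and 110 FPKM) also had more Mt2 than either PGC library. Both promoters, 250 bases before to 50 after the start (RefSeq, GRCm38.p6, plus strand), are shown because neighbouring genes lay on the same side. They were searched on both strands for TGCNCNC, a loose form of the metal response element that binds the zinc sensor Mtf1. Matches, of either strand and none overlapping another, are in capitals.
Mt2, chr8:94172368-94172667: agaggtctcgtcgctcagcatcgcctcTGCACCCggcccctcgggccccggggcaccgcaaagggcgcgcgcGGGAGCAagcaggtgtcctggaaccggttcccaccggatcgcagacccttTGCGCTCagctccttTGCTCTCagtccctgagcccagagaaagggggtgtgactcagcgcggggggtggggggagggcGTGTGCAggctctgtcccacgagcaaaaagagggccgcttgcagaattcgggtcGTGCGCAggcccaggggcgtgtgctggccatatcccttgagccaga
Mt1, chr8:94178839-94179138: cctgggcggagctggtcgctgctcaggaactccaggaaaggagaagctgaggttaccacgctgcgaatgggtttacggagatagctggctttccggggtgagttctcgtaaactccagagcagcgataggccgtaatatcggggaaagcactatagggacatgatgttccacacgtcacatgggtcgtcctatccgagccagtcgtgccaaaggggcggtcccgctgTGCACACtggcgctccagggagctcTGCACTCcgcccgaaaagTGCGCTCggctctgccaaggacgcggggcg
The Mt2 window held 6 matches, 3 on each strand, and the Mt1 window 3, all on the plus strand, with 24 CpG in each window. Of 32851 promoter windows in the RefSeq table, 51% held at least 1 match, 7.1% at least 3 and 0.225% at least 6. A match is a description of letters and not a site. Mtf1 itself was at 3.76 and 8.71 FPKM in EGCs and 1.48 and 4.84 FPKM in PGCs. The zinc importer Slc39a14 was at 5.19 and 3.33 FPKM in EGCs and 30 and 88.6 FPKM in PGCs, and neither passed the test.

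Genes of glucose use lay mostly on the EGC side with a single call. Of 25 glycolysis and glucose transport genes 1 rose, Eno2, none fell, and the median was 1.15. In 15 of the 25 both EGC lines were above both PGC libraries, and in none below, beside 24.1% of all tested genes above. Eno2, the neuronal enolase, was at 13.3 and 8.9 FPKM in EGCs and listed at 0 in both PGC libraries (3.57 ± 0.58, limma adjusted p = 0.0421). The glucose transporters Slc2a1 and Slc2a3 were at 162 and 126 FPKM and at 185 and 155 FPKM in EGCs, against 39.6 and 35.4 FPKM and 27.4 and 80.1 FPKM in PGCs. Aldoa was at 247 and 224 FPKM in EGCs and 114 and 97.3 FPKM in PGCs, and Ldha at 175 and 185 FPKM in EGCs and 69.1 and 82 FPKM in PGCs. None of these 4 passed the test. Gapdh and Pgk1 have many pseudogenes and their values are uncertain. Hypoxia response genes had no limma call among 21, and 4 were at an unadjusted p below 0.05 (17.2% over all genes). Their median was 0.91 (0.59 without EGC line 4). Upp1 (chromosome 11, 9118103 to 9136170), which splits uridine to salvage its sugar, was the only call among 33 nucleotide metabolism genes, at 115 and 70.1 FPKM in EGCs and 0.22 and 0.105 FPKM in PGCs (6.29 ± 0.63, limma adjusted p = 0.00714), and it lost the threshold without EGC line 4 (0.117) or line 7 (0.0594). Nme4, a mitochondrial nucleoside diphosphate kinase, was at 25.8 and 27 FPKM in EGCs and listed at 0 in both PGC libraries (4.77 ± 0.49, limma adjusted p = 0.00714). Pold2, a subunit of DNA polymerase delta, rose to 58.8 and 36.4 FPKM in EGCs, against 1.48 and 0.16 FPKM in PGCs.

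Other metabolic lists had medians above 0 and few calls. Serine, one-carbon and amino acid genes had no limma call among 27, 1 at an unadjusted p below 0.05, a median of 0.59 (0.31 without PGC library 1), and 13 with EGCs above and 1 below. Asns, asparagine synthetase, was at 92.4 and 118 FPKM in EGCs and 7.78 and 43.4 FPKM in PGCs. Cholesterol and fatty acid genes had no limma call among 31, 9 at an unadjusted p below 0.05, a median of 0.55 (0.90 without EGC line 7), and 12 with EGCs above and 1 below. Over all tested genes 17.2% had an unadjusted p below 0.05, 24.1% had EGCs above and 20% below. Gsta4, a glutathione transferase that clears lipid peroxidation products, rose to 192 and 210 FPKM in EGCs, against 36 and 36.7 FPKM in PGCs (2.44 ± 0.41, limma adjusted p = 0.0488), the only call among 25 redox genes and the smallest called rise. Within each group its values were close together. Chkb, choline kinase beta, rose to 44.6 and 30.8 FPKM in EGCs, against 2.32 and 1.07 FPKM in PGCs. Polg, the mitochondrial DNA polymerase, fell to 6.87 and 7.78 FPKM in EGCs, against 106 and 71.2 FPKM in PGCs (-3.40 ± 0.47, limma adjusted p = 0.0289), and was the only call among 28 mitochondrial genes, whose median was 0.26. Polg overlaps Fanci on the opposite strand.

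Among stress and growth-control genes, Ccng1, a cyclin induced by p53, rose to 15.4 and 24.2 FPKM in EGCs, against 0.488 and 0.396 FPKM in PGCs (3.82 ± 0.53, limma adjusted p = 0.0299). It was the only call among 30 p53 target and apoptosis genes, which had a median of 0.84 (0.28 without PGC library 1) and 13 members with EGCs above and 1 below, beside 24.1% and 20% over all genes. The p53 target Cdkn1a was at 63.9 and 45.9 FPKM in EGCs and at 0 and 48.7 FPKM in PGCs, so its groups overlapped, and Trp53 was at 49.7 and 83.7 FPKM in EGCs and 73.4 and 137 FPKM in PGCs. Hspa8 (chromosome 9, 40800984 to 40810087), the constitutive HSP70 chaperone, fell to 21.6 and 21.1 FPKM in EGCs, against 174 and 149 FPKM in PGCs (-2.86 ± 0.38, limma adjusted p = 0.0272). Hspa8 has many pseudogenes, so its value is uncertain. It was the only call among 22 chaperone genes, and its co-chaperone Dnajb1 was at 3.36 and 9.64 FPKM in EGCs and 33.1 and 62.3 FPKM in PGCs without passing. Hsp90aa1 and Hsp90ab1 differed by 0.01 and -0.09. The 34 cell cycle genes had no limma call, 11 at an unadjusted p below 0.05 (17.2% over all genes), and a median of 0.14, with Mki67 at 34 and 25.2 FPKM in EGCs and 69.1 and 63.1 FPKM in PGCs. Hmgn5, a nucleosome-binding protein encoded on the X chromosome, fell to 5 and 9.46 FPKM in EGCs, against 117 and 127 FPKM in PGCs (-3.96 ± 0.49, limma adjusted p = 0.0184), the only call among 30 histone variant and HMG genes. Hmga2, a chromatin protein of embryonic cells, was at 0.0649 and 0.704 FPKM in EGCs and 43.8 and 7 FPKM in PGCs without passing.

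Among genes of epithelial junctions, adhesion and the cell surface, Cldn4, Cd9, Lama5 and Adam23 rose, while list medians lay near or below 0. Medians were 0.06 over 28 epithelial, -0.18 over 26 extracellular matrix and -0.46 over 29 germ cell migration genes. Without PGC library 1 they came to 0.06, 0.20 and 0.11. EGCs were above at 9, 5 and 8 of these and below at 8, 7 and 10, beside 24.1% and 20% over all tested genes. The germ cell migration list had 1 rise and 1 fall, beside 0.523% and 0.217% over all tested genes. Cldn4, a tight junction claudin, rose to 18.4 and 17.4 FPKM in EGCs, against 0.0449 and 0.143 FPKM in PGCs (4.11 ± 0.51, limma adjusted p = 0.0184), and was the only call among 28 epithelial genes. Cldn6 was at 18.2 and 20.7 FPKM in EGCs and 0.29 and 0.104 FPKM in PGCs, a difference of 4.10 that did not pass. Cdh1 and Epcam, the general epithelial adhesion proteins, were at 32.3 and 45.1 FPKM and 46.8 and 47.5 FPKM in EGCs, against 16.1 and 25.2 FPKM and 51 and 52.8 FPKM in PGCs, and neither passed. Cd9, a tetraspanin of germ line stem cells and oocytes, rose to 16.7 and 16.8 FPKM in EGCs, against 0.959 and 0.369 FPKM in PGCs (3.44 ± 0.51, limma adjusted p = 0.0337). Lama5, a basement membrane laminin chain, rose to 36.1 and 38 FPKM in EGCs, against 1.3 and 0.014 FPKM in PGCs (4.64 ± 0.80, limma adjusted p = 0.0488), and this call held in 1 of the 18 alternatives. Adam23, a membrane protein that binds integrins, rose to 37.8 and 52 FPKM in EGCs, against 0.131 and 0.505 FPKM in PGCs (5.12 ± 0.61, limma adjusted p = 0.0181). Cd24a, a small surface glycoprotein, was at 13.4 and 14 FPKM in EGCs and 163 and 169 FPKM in PGCs, and the chemokine receptor Cxcr4, which guides migrating PGCs, was listed at 0 in both EGC lines and at 1.78 and 8.93 FPKM in PGCs. Neither passed the test.

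Other named rises did not come from a single list, and Stmn2 and Trh were on marker lists of other cell types. Pla2g1b, a secreted phospholipase, rose to 183 and 148 FPKM in EGCs, against 4.6 and 0 FPKM in PGCs. Trh, the precursor of thyrotropin-releasing hormone, rose to 109 and 72.9 FPKM in EGCs, against 1.46 and 4.12 FPKM in PGCs. Igfbp2, which binds insulin-like growth factors, rose to 68.9 and 73.9 FPKM in EGCs, against 5.16 and 2.63 FPKM in PGCs. These secreted proteins had limma adjusted p of 0.0301, 0.0421 and 0.0359. Stmn2, a microtubule regulator of neurons, rose to 38.2 and 27.9 FPKM in EGCs, against 0.0535 and 0.0606 FPKM in PGCs. Nphs1, which encodes the kidney filter protein nephrin and overlaps the antisense gene Nphs1os, rose to 31.6 and 20.6 FPKM in EGCs, against 0.0149 FPKM and below 0.001 FPKM in PGCs. F2rl1, a protease-activated receptor, rose to 17.5 and 16.2 FPKM in EGCs, against 0.0204 and 0 FPKM in PGCs. Of the rest, Dok2, an adaptor of receptor tyrosine kinases, was at 24.7 and 14.4 FPKM in EGCs and at 0 in both PGC libraries, and Psrc1, a spindle protein, at 31.6 and 45.6 FPKM in EGCs and 2.55 and 0 FPKM in PGCs. Mylpf, Fam25c, Uap1l1 and Ccdc136 rose by 6.61, 5.36, 5.29 and 5.15 on the log2 scale. Hist1h2ak, a histone gene, Ifi30, a lysosomal thiol reductase, and Mtus1 rose by 4.20, 4.17 and 4.15. At Mylpf, Fam25c, Uap1l1 and Ccdc136 the EGC lines lay far from each other, as at Mylpf with 48.4 and 314 FPKM in EGCs, against 0.634 and 0 FPKM in PGCs.

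Other named falls also belonged to no single list. Lrrk2, a kinase best known from Parkinson disease, fell to 0.273 and 0.558 FPKM in EGCs, against 19.8 and 16.7 FPKM in PGCs. Nrk, an X-linked kinase known from placenta, fell to 0.0162 and 0.163 FPKM in EGCs, against 17.4 and 10.9 FPKM in PGCs. Irf1, an interferon response factor, fell to 2.64 and 4.32 FPKM in EGCs, against 57.1 and 37.3 FPKM in PGCs. In each of these the PGC libraries were within a narrow range and the EGC lines far below. Atp8a1, a phospholipid flippase that overlaps Shisa3 on the opposite strand, fell to 1.16 and 1.39 FPKM in EGCs, against 74.4 and 27.2 FPKM in PGCs. Tnnt3, a skeletal muscle troponin, was listed at 0 in both EGC lines and stood at 40.1 and 10.9 FPKM in PGCs. Aff2, an X-linked nuclear protein, fell to 0.0261 and 0.0696 FPKM in EGCs, against 8 and 7.03 FPKM in PGCs. Cwc22, a splicing factor, fell to 4.85 and 6.85 FPKM in EGCs, against 45.9 and 104 FPKM in PGCs. Rps2, at 2.17 and 19.8 FPKM in EGCs and 143 and 245 FPKM in PGCs, has many pseudogenes and its value is uncertain. On the X chromosome 7 of 378 tested genes changed, 3 up and 4 down, beside 0.523% up and 0.217% down over all tested genes. The X chromosome median was 0.06, beside 0.07 over all tested genes.

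Among the 4 EGC and PGC libraries, summed markers of extraembryonic endoderm, fibroblasts, blood and trophoblast were highest in PGC library 1, those of gut endoderm and endothelium in EGC line 4. Summed over 23 extraembryonic endoderm markers, EGC lines had 23.1 and 35.5 FPKM, against 288 and 57.2 FPKM in PGCs. Summed fibroblast, mesenchyme and feeder markers, 21 in number, were at 31.2 and 21.3 FPKM in EGCs and 204 and 48.4 FPKM in PGCs, with 10 at 0 in both EGC lines, among them Col1a2, Col3a1 and Dcn. Of 21 blood, macrophage and platelet markers with an entry, 13 were at 0 in both EGC lines, among them Ptprc and Pf4, and the sums were 41.7 and 31.9 FPKM in EGCs and 216 and 47.3 FPKM in PGCs. The 1 call on that list was a fall of S100a9, a neutrophil protein, listed at 0 in both EGC lines and at 15.6 and 8.77 FPKM in PGCs. In PGC library 1 Afp was at 82.6 FPKM, Apoa1 at 53 FPKM and T at 37.9 FPKM, and all 3 were at 0 in PGC library 2. Neural marker sums were 85 and 47.5 FPKM in EGCs and 87.3 and 6.29 FPKM in PGCs, with Stmn2 as the 1 rise among 7 tested. Gut endoderm sums were 131 and 94.1 FPKM in EGCs and 12.1 and 9.14 FPKM in PGCs, and Trh made up most of the EGC sums. Endothelial sums were 120 and 28.5 FPKM in EGCs and 33.6 and 64.3 FPKM in PGCs, and trophoblast sums 46.8 and 65.9 FPKM in EGCs and 118 and 52.9 FPKM in PGCs. The part of these cells in the falls and list medians was not tested. Without PGC library 1 the early PGC median was -2.42, against -1.78 with it. Medians of extraembryonic endoderm, fibroblast and blood markers came to 0.06, 0.07 and 0.43 without that library, against -0.96, -1.29 and -0.84 with it. Those of endothelium, gut endoderm and trophoblast came to 0.15, 0.16 and 0.29, against -0.24, -0.39 and -0.49. The neural median came to 2.22, against 1.83.

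In both EGC lines Mirg was above, and the chaperone Hspa8 below, the cells made from embryonic stem cells as well. The value of Hspa8 is uncertain, since it has many pseudogenes. EGCs also differ from these cells in strain, passage and culture, whose parts cannot be told apart. Against the mean of iPGCs and PGCLCs, 17 genes (0.153%) changed by limma with Benjamini-Hochberg adjustment, 8 higher (0.0722%) and 9 lower (0.0812%) in EGCs. This comparison shares its EGC libraries with the one against PGCs, so the values are given side by side. Rises against PGCs that lay near 0 or below against these cells included Dnmt3l (-0.17), Mt2 (0.13), Sgk1 (0.49), Nme4 (0.37), Pold2 (-0.44), Cldn4 (-0.83), Ccng1 (-1.01) and Igfbp2 (-0.28). Others, such as Tdgf1 (2.51) and Lefty1 (3.68), stayed higher in EGCs without passing. Falls against PGCs that lay near 0 against these cells included Lats2 (0.20), S100a9 (0.00), Aff2 (-0.12) and Lrrk2 (-0.53). At these genes the PGCs were high and all other groups low. Rgma differed by -1.05 from these cells, against -5.48 from PGCs. Other falls, such as Tnnt3 (-3.94) and Dppa3 (-2.78), stayed lower in EGCs without passing. Mirg was higher by 4.85 against these cells and by 5.26 against PGCs, and Adam23 by 4.5 and 5.12. Hspa8 was lower by a log2 difference of -3.77 against these cells (21.6 and 21.1 FPKM in EGCs, 345 and 271 FPKM in iPGCs, 387 and 237 FPKM in PGCLCs) and of -2.86 against PGCs. AU015836, an X-linked gene without an annotated role here, differed by -4.11 and -4.27. Zc3hav1, an antiviral zinc finger protein, was lower by a log2 difference of -3.64 (limma adjusted p = 0.02) against these cells and -2.32 against PGCs, where it did not pass. Rab3b, a vesicle GTPase, differed by -3.97 from these cells and 0.04 from PGCs, with 0 and 0.213 FPKM in EGCs, 0.142 and 0 FPKM in PGCs, 10.9 and 24.3 FPKM in iPGCs and 16 and 16.5 FPKM in PGCLCs. For the markers, Dppa3 was at 423 and 317 FPKM in iPGCs and 726 and 400 FPKM in PGCLCs, near the PGC values, and Tdgf1 at 14.2 and 6.54 FPKM in iPGCs and 95.7 and 64 FPKM in PGCLCs, between EGCs and PGCs.

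Lines 4 and 7 differed from each other at single genes, given here with no test. Among the protein-coding genes with the largest gaps, Acsm3, a medium-chain acyl-CoA synthetase, was at 54.7 FPKM in line 4 and 0.188 FPKM in line 7, and Trpm1, a cation channel, at 64 and 0.405 FPKM. On the other side the largest gap was at Eif2s3y, a Y-linked translation factor, at 0 FPKM in line 4 and 22.9 FPKM in line 7. The other Y genes followed it, with Uty at 0 and 10.9 FPKM and Ddx3y at 0 and 2.4 FPKM in lines 4 and 7. In PGC libraries 1 and 2 Eif2s3y was at 12.7 and 50.9 FPKM. Xist, which coats an inactive X chromosome, was at 0.601 and 3.27 FPKM in EGCs and 21.4 and 13.5 FPKM in PGCs, so both PGC libraries held Xist together with Y-linked transcripts. Its antisense partner Tsix was at 2.96 and 1.01 FPKM in EGCs and 0.0152 and 0.0468 FPKM in PGCs. None of the 13 tested sex-linked genes passed the limma threshold between EGCs and PGCs. Of these, 3 had an unadjusted p below 0.05, beside 17.2% over all genes.

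**Figure D5:**
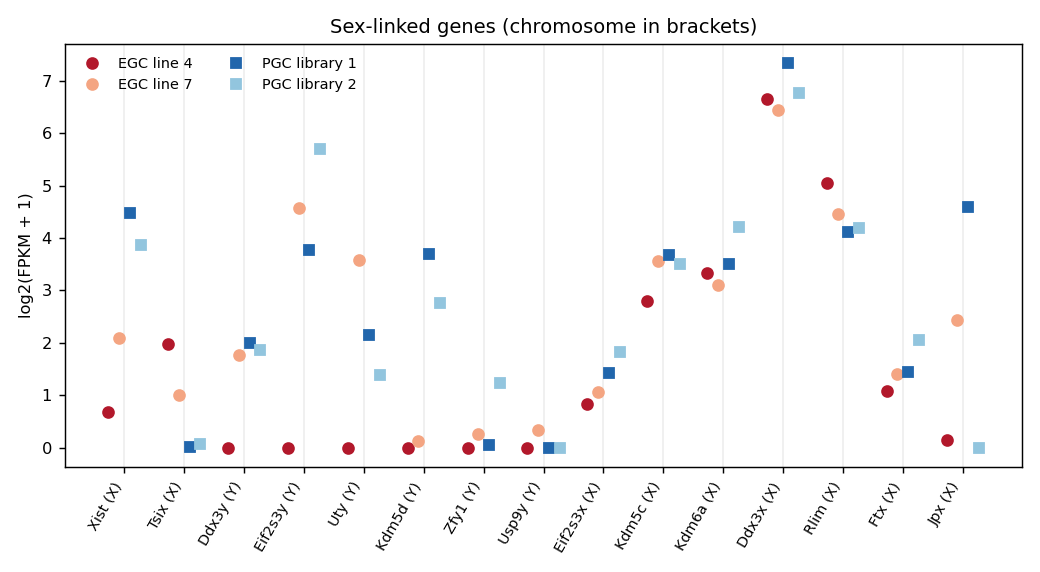
Log2(FPKM + 1) of 15 X-linked and Y-linked genes in EGC lines 4 and 7 (circles) and PGC libraries 1 and 2 (squares), with the chromosome in brackets. Line 4 is at 0 for all 6 Y-linked genes and line 7 is not, and both PGC libraries have more Xist and less Tsix than either line.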

How the data were processed

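RNA of sorted or cultured cells was amplified and sequenced as 50 base single-end reads, and FPKM values per gene were deposited by the authors in 1 table. TopHat2, Cufflinks, GRCm38 and mm10 are named in the submitters' processing notes, with no versions given in the sources used here. Read totals are not stated, so depth is unknown and the number of libraries limits precision. The table held 20171 entries for 20153 gene identifiers (18 extra entries of 15 identifiers were dropped), of which 19769 were found in GENCODE M21 (GRCm38), the source of positions, and 27 symbols that had become dates were replaced by its symbol or by the gene identifier. Genes that reached 1 FPKM in 2 or more of 8 libraries were fitted as log2(FPKM + 1), which understates changes of low genes, with limma 3.58.1 in R 4.3.3 (variance trend, robust, 4 residual and a median of 4.53 prior degrees of freedom) over all 4 groups of 2 libraries, and Benjamini-Hochberg adjusted p below 0.05 over all tested genes was called. The script was tested on simulated data that gave each gene the same spread in every group. That test does not cover the unequal spread of these groups. Named genes were those called, with groups apart and a mean of 10 FPKM or more in the higher group, as the 30 largest rises and 20 largest falls, leaving out Gm and Rik genes, ribosomal protein genes, pseudogenes and short RNAs; list members and other called genes are named with their values where their group is described. Members and lists were chosen with earlier results of these data known. Replicate numbers are shared by PGCs, iPGCs and PGCLCs only, so a replicate block was one of 18 alternatives, with EGC lines 4 and 7 coded 0. Sequences are from RefSeq (GRCm38.p6), where 15 of 15 microRNA genes looked up were found.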

Additional observations from a re-analysis of the deposited data

How the results depend on the processing

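The 82 calls of EGCs against PGCs became 31 with a pseudocount of 5, 14 without a filter, 0 with only the compared groups in the limma fit, 23 with library weights, and 7 to 107 with 1 library left out. Against iPGCs and PGCLCs, 17 calls became 8 without a filter, 45 with only the compared groups, 56 with library weights, and 5 to 63 with 1 library left out. Of the 50 named genes, 21 held with a pseudocount of 5, 7 without a filter, 32 without the variance trend, 0 with only the compared groups, 15 with library weights, and 0 to 28 with 1 library left out. The 28 calls on gene lists became 13, 4, 17, 0 and 7 under the same 5 settings, and 0 to 33 with 1 library left out. With the replicate block there were 43 calls, all 43 among the 82, with 12 against iPGCs and PGCLCs, 29 named genes and 16 list genes. EGC lines share no replicate number with PGCs, so no pairing between these groups was possible. The cause of these changes was not tested. Of 972 values of 54 single genes under the alternatives, 382 kept the call, 590 lost it and 0 changed sign. Named genes held in 1 to 15 of 18 alternatives. Of 48 list medians, 21 kept their sign throughout. Medians that changed sign or reached 0 in at least 1 alternative included those of later germ cell, Nodal, WNT, FGF, LIF, KIT, Hippo, DNA methylation, imprinted, metallothionein, nucleotide, cell cycle, epithelial and transposon genes. Those of germ cell migration and extracellular matrix genes did so too. The smallest called difference was 2.44 on the log2 scale. With 2 libraries a group the standard error varied by gene, and some larger differences did not pass.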
